A study of Mus musculus with 2 samples.

Results

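Chromatin accessibility was described at 9 core genes of the hedgehog pathway, Gli1, Gli2, Gli3, Ptch1, Smo, Sufu, Hhip, Boc and Cdon, in the cerebellum of 4 day old mice. The genes were named for their place in the pathway and make up 9 of the 21670 protein-coding genes of the annotation used. For each gene, open sites were collected at its coding starts, in its body and in the 50 kb on either side. Accessibility was measured by DNase-seq, in which the enzyme DNase I cuts exposed DNA, dense cutting is called as a peak, and short protected gaps within the cut DNA are called as footprints. The tissue came from male B6CASTF1/J mice, hybrids that inherit 1 genome from C57BL/6J and 1 from the wild-derived CAST strain, and the label of each library names 3 males. The 2 libraries are biological replicates of 1 group, with no mutant, treatment or other age to set them against, so no comparison of conditions was possible and no p-value is given. Because the tissue was used in bulk, a site open in more cells and a site more open in each cell cannot be told apart.

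In the hedgehog pathway the secreted ligand binds the receptor PTCH1 at the cell surface, helped by the co-receptors BOC and CDON and opposed by the decoy HHIP. Without ligand PTCH1 holds back the transducer SMO. With ligand SMO acts through the primary cilium, releases the GLI transcription factors from the inhibitor SUFU and slows their trimming into repressors. In the newborn cerebellum Purkinje cells secrete Sonic hedgehog, which drives the division of granule cell progenitors in the outer layer, and Gli1, Ptch1 and Hhip are direct targets of the pathway in many mouse tissues.

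The libraries differed before any hedgehog gene was considered. Replicate 2 held 131518 peaks and replicate 1 held 61896 in the less strict deposited list. The peak value is the authors' normalised signal, and its smallest step was 0.00665 in replicate 2 and 0.00645 in replicate 1. The median peak stood at 94 steps in replicate 2 and 122 steps in replicate 1, while the depth in reads is unknown. Coding starts of the cerebellar markers were open at 8 of 10 genes in replicate 2 and at 8 of 10 in replicate 1, with Pax6 open in replicate 2 alone, Zic4 in replicate 1 alone and Ptf1a in neither. Of 6 forebrain markers, 6 had a coding-start peak in replicate 2, and 1 did in replicate 1, Emx2 at 0.929. Their values in replicate 2 were 0.698 to 2.87, at percentiles 10.3 to 39.3 of the genes with such a peak. The cerebellar markers open in replicate 2 stood in a like range, from percentile 5.81 at Atoh1 to 46.6 at Pax6. In the stricter list 5 of the 10 cerebellar and 1 of the 6 forebrain markers had a coding-start peak in both libraries. Over all 21670 coding genes, 14095 had a coding-start peak in replicate 2 and 12985 in replicate 1. None of the 4 blood, 3 choroid plexus and 3 liver markers had a coding-start peak in either library. The labels call both libraries cerebellum, but with these forebrain markers open it is in doubt, and was not tested, whether replicate 2 is cerebellum alone. For that reason values are given per library. Every result below that differs between the libraries moves with these differences in peak number and forebrain markers, and their part in it was not tested.

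The first set of sequences shows where the GLI binding sequence, GACCACCCA on either strand, fell in shared open sites of the hedgehog genes. Coordinates are those of mm10, the letters are those of the C57BL/6J reference from RefSeq (GRCm38.p6), so CAST alleles are not shown, and each sequence runs along the strand of its gene. Capitals mark the GLI sequence. The site at the Ptch1-201 coding start is shown from chr13:63566294-63566480 (minus strand), and 29 bases around the match at the most upstream Ptch1 start from chr13:63573455-63573483 (minus strand). The Smo site lies upstream of the gene at chr6:29718961-29719160 (plus strand) and the Boc site in an intron at chr16:44552104-44552251 (minus strand). The last stretch, chr13:63569154-63569303 (minus strand), holds a match in a Ptch1 intron that lay just outside the called site. A match is a description of letters and not a bound site.
Ptch1 start: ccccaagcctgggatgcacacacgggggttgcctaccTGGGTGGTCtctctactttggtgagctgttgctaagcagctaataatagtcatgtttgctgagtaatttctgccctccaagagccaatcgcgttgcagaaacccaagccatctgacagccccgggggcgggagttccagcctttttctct
Ptch1 upstream start: tggcgcggcaGACCACCCAcgccgagggc
Smo upstream: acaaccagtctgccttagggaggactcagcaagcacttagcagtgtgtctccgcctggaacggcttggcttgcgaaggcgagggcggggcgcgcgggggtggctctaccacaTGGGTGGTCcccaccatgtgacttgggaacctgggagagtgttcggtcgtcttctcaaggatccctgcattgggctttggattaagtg
Boc intron: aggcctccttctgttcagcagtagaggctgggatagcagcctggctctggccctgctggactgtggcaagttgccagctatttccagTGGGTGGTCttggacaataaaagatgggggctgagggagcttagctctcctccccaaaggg
Ptch1 intron: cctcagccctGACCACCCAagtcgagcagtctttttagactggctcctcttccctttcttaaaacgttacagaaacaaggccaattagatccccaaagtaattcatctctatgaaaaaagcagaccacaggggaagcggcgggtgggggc

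The second set shows open sites where footprints of the replicates fell on the same bases, which are in capitals. The site of the Gli1 coding start lies at chr10:127342381-127342580 (minus strand) and that of the Sufu start at chr19:46396721-46396895 (plus strand), printed up to the base before transcription begins. The other sites were the strongest shared ones away from coding starts at their loci. These were chr1:119087621-119087820 upstream of Gli2 (minus strand), chr13:15759201-15759420 downstream of Gli3 (plus strand), chr13:63567821-63568120, the central 300 bases of a longer site, in a Ptch1 intron (minus strand) and chr16:44484161-44484360 downstream of Boc (minus strand).
Gli1 start: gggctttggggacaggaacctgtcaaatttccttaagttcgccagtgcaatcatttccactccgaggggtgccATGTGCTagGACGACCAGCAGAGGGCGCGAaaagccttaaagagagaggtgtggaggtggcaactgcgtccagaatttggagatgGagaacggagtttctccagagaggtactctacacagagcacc
Sufu start: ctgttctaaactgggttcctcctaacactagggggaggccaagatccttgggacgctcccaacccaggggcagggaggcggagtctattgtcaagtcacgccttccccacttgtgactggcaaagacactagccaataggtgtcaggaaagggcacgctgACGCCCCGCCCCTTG
Gli2 upstream: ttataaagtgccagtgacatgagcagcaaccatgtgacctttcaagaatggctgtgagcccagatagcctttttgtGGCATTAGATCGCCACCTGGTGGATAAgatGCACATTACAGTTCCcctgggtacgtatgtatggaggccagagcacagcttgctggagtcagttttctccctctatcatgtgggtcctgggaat
Gli3 downstream: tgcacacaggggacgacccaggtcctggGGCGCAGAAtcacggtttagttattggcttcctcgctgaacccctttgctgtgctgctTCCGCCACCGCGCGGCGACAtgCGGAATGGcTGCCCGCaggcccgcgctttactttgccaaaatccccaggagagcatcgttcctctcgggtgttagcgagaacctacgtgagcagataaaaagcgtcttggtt
Ptch1 intron strongest: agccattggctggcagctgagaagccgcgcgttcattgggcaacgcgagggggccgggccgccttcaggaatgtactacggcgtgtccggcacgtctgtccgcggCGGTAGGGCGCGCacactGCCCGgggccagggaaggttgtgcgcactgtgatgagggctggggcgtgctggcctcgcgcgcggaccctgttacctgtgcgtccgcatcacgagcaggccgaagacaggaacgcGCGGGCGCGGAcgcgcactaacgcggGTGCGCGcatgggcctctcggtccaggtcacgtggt
Boc downstream: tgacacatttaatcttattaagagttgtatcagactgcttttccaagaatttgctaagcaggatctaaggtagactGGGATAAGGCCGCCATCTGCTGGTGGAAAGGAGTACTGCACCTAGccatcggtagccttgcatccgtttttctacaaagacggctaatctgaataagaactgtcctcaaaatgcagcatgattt

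The 9 hedgehog genes all had a peak within 500 bp of a coding start in both libraries, and this held in the less strict and in the stricter list. Over all coding genes the share was 58.9% in the less strict list and 52.3% in the stricter list. The level of opening was modest. Where several peaks met the window the strongest was used, and its value was ranked among the 14095 coding genes with such a peak in replicate 2 and the 12985 in replicate 1. Of the 9 genes, 8 stood below the median gene in replicate 2 and 7 in replicate 1. Their median value was 2.32 in replicate 2 and 1.26 in replicate 1, and over all genes with a coding-start peak it was 4.0 in replicate 2 and 2.11 in replicate 1. CpG density within 500 bp of the most upstream start was above the median over all coding genes (4.2 per 100 bp) in 9 of 9, between 4.9 at Gli1 and Boc and 11 at Gli3. That median takes in genes with and without a peak, and CpG density was not ranked among open genes alone.

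Among the genes of ligand reception, Ptch1, which encodes the receptor, had a coding-start value of 3.86 in replicate 2 and 1.63 in replicate 1, a mean of 2.75 ± 1.57 (SD, n = 2). The strongest Ptch1 peak was thus at percentile 48.6 of the genes of replicate 2 and 37.3 of those of replicate 1. Hhip, the decoy that binds ligand at the membrane, had 1.24 in replicate 2 and 0.826 in replicate 1 (1.03 ± 0.291). By the strongest coding-start peak of each gene, this was the lowest value of the 9 in both libraries, at percentiles 19.8 and 12.7. The co-receptor gene Boc had 1.54 in replicate 2 and 1.02 in replicate 1 (1.28 ± 0.366). Its relative Cdon had 2.71 in replicate 2 and 1.26 in replicate 1 (1.99 ± 1.03). Cdon stood above Boc within each library. Pooled over the libraries the values of these co-receptor genes overlapped, with replicate 2 higher at both.

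Smo, the gene of the transducer, had 1.44 in replicate 2 and 0.935 in replicate 1 (1.19 ± 0.359), near Hhip and Boc. Sufu, which encodes the inhibitor that holds GLI proteins in the cytoplasm, had 11.2 in replicate 2 and 4.33 in replicate 1 (7.77 ± 4.87). Its lower value exceeded the higher value of each of the other 8 genes, and it ranked at percentile 92.6 of genes in replicate 2 and 90.2 in replicate 1. Sufu shares its upstream stretch with Actr1a, a gene of a dynein partner complex. The coding starts of Actr1a carried 2 shared sites, centred 1125 and 1605 bp upstream of the Sufu start, with values of 9.26 and 8.74 in replicate 2 and 4.10 and 3.27 in replicate 1.

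The 3 GLI genes differed in their opening. Gli2, the main activator of early hedgehog response, had 3.37 in replicate 2 and 2.12 in replicate 1 (2.74 ± 0.884). Gli1, an activator that is itself a target, had 2.32 in replicate 2 and 1.66 in replicate 1 (1.99 ± 0.469). Gli3, the main source of GLI repressor, had 1.36 in replicate 2 and 0.839 in replicate 1 (1.1 ± 0.367), below both values of the other GLI genes. In both libraries the lowest 4 genes were Boc, Smo, Gli3 and Hhip, in that falling order. Ptch1, Gli2 and Gli1 stood above these 4 in both libraries, while their own ranges overlapped with each other.

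**Figure D1:**
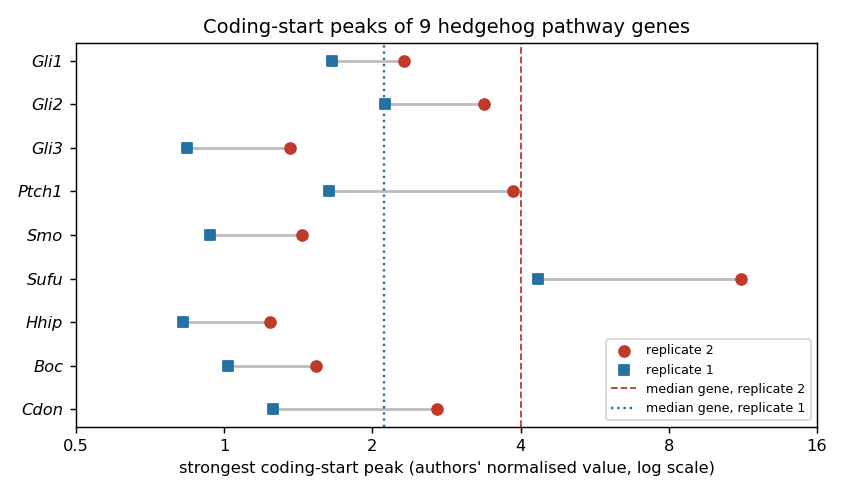
The strongest coding-start peak of each hedgehog gene is plotted on a log axis in the authors' normalised units, with circles for replicate 2 and squares for replicate 1, and lines at the median gene of each library (4.0 and 2.11). Sufu lies at 11.2 and 4.33, right of both lines, and the other genes lie left of the median of their library, except Gli2 in replicate 1 (2.12), just above it.

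All 9 genes had the higher value in replicate 2, as did 92.6% of the 12774 genes open in both libraries. The log2 difference (replicate 2 minus replicate 1) had a median of 0.67 over the 9 genes and 1.02 over all genes, with an SD of 0.6 over all genes. It was largest at Sufu (1.37), Ptch1 (1.24) and Cdon (1.1), the 3 genes above the median gene. The other 6 lay between 0.49 at Gli1 and 0.69 at Gli3. Every gene was therefore within 1 SD of the median over all genes.

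The 9 genes have 24 annotated coding starts, of which 20 had a peak in both libraries. Starts close together were counted with the same peaks, as the 4 starts of Sufu were. The share over all annotated coding starts was not counted. The 3 starts with no peak in either library all belong to Cdon (Cdon-206, Cdon-201 and Cdon-203), and no interval with a false discovery rate under 0.05 lay in their windows. The start of the short transcript Gli1-202 had a peak in replicate 2 alone (0.911). The window of Gli1-202 held 159 bp under this rate in replicate 2 and 0 bp in replicate 1.

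Ptch1 has 5 coding starts, and the highest value within 500 bp of a start was found at Ptch1-201. Within 500 bp of the Ptch1-201 start, at chromosome 13 position 63565735, the strongest peak had 3.86 in replicate 2 and 1.63 in replicate 1. That peak was centred 616 and 526 bp upstream of the start. Its near edge lay 486 bp away in replicate 2, close to the 500 bp limit, and 346 bp away in replicate 1. The site over the Ptch1-201 start itself had 0.652 in replicate 2 and 0.664 in replicate 1. The most upstream start, Ptch1-205, had 1.05 in replicate 2 and 0.806 in replicate 1. Ptch1-203 and Ptch1-202 shared the same strongest peaks, with 0.792 in replicate 2 and 0.703 in replicate 1. Ptch1-207 had 0.778 in replicate 2 and 0.781 in replicate 1. At the 3 starts other than Ptch1-201 and Ptch1-205, and at the site over Ptch1-201, the replicates thus differed little. The peak upstream of Ptch1-201 was far higher in replicate 2. Values also differed between the starts of Gli3. Gli3-201 had 0.572 in replicate 2 and 0.542 in replicate 1, below the 1.36 and 0.839 of its upstream starts.

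Gli1 had its strongest site inside the gene. A shared site in a Gli1 intron at chr10:127338921-127339120 had 4.2 in replicate 2 and 1.81 in replicate 1, above the coding-start peak in both libraries. The Gli1 coding-start peak itself was centred 507 bp upstream of the start in replicate 2 and 497 bp in replicate 1. A weaker site over the start had 0.891 in replicate 2 and 1.15 in replicate 1. The Gli1 peak counted as a coding-start peak with its near edge 407 bp from the start, close to the limit of the 500 bp window, and a Smo exon site at 517 bp (0.439 in replicate 2 and 0.671 in replicate 1) fell just outside it.

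Around the 9 genes, 155 peaks were called in replicate 2 and 85 in replicate 1. Of these, 73 overlapped a peak of the other library, which is 47.1% of the peaks of replicate 2 and 85.9% of those of replicate 1. Over all peaks these shares were 33.4% in replicate 2 and 71.1% in replicate 1. In the stricter list 101 peaks were called in replicate 2 and 48 in replicate 1, and 44 of each overlapped. Peaks that overlapped across the libraries were merged into 163 sites, of which 70 (42.9%) were shared, against 28.9% of all 146797 merged sites. These shares, and those of overlapping peaks, are not like for like, because the loci were drawn around genes and include coding starts of neighbours. Of the shared sites, 30 of 70 lay more than 1000 bp from any coding start at these loci, and 23689 of 42411 did over the genome. Whether agreement differs for sites of the same kind was not tested.

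Peak numbers differed widely between the loci. Sufu, whose surroundings hold 5 other coding genes, had 31 peaks in replicate 2 and 15 in replicate 1. Gli2 had 22 and 12, Ptch1 21 and 16, Gli3 18 and 10, and Gli1 17 and 11, with the count of replicate 2 given first. Smo had 14 and 9, Boc 14 and 6, and Cdon 14 and 4. Hhip was the emptiest locus, with 4 peaks in replicate 2 and 2 in replicate 1, and its single shared site was that of its start. No other coding gene lies within 50 kb of Gli2, Gli3 or Hhip, so these 3 loci spanned 4 to 22 peaks in replicate 2 with no neighbour to count.

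**Figure D2:**
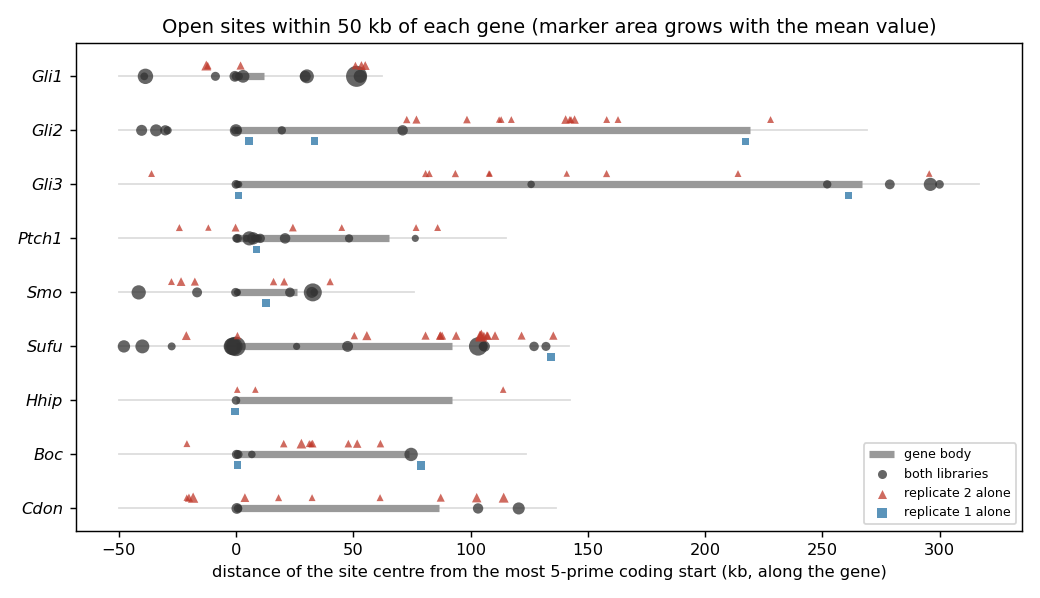
Each row runs along 1 gene in kb from its most upstream coding start, with a thick bar for the gene body, circles for sites open in both libraries, triangles for sites of replicate 2 alone and squares for sites of replicate 1 alone, with marker area growing with the value. Shared sites cluster at the starts, Gli2, Gli3 and Boc carry rows of replicate 2 sites along their introns, and Hhip has 1 shared site.

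Values at the 70 shared sites agreed in rank between the libraries about as well as elsewhere. On the log2 scale Pearson's r was 0.864 and Spearman's rho 0.847 over the 70 sites, and 0.856 and 0.846 over all 42411 shared sites. These are descriptions over sites of the same pair of libraries. Replicate 2 was higher at 59 of the 70 sites (84.3%) and at 80.2% of all shared sites, with a median log2 difference of 0.64 (SD 0.68) at the hedgehog loci and 0.63 (SD 0.71) over all.

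**Figure D3:**
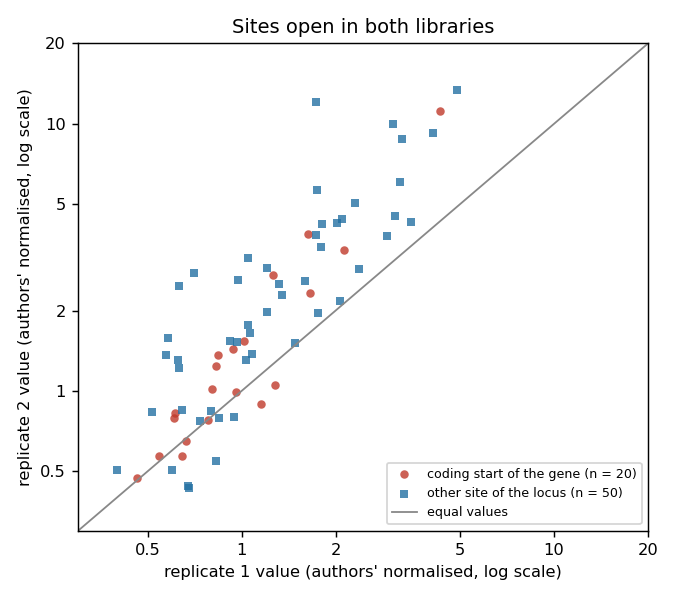
Each point is 1 of the 70 shared sites, with the value of replicate 2 against that of replicate 1 on log axes, circles for 20 sites at coding starts and squares for 50 other sites. Most points lie above the line of equal values (59 of 70), and the point farthest above it is the site downstream of Sufu with 12.1 in replicate 2 and 1.73 in replicate 1.

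Of the sites that were not shared, 82 were seen in replicate 2 alone and 11 in replicate 1 alone. Over all peaks, 33.4% of those of replicate 2 overlapped one of replicate 1, against 47.1% at these loci. Peaks of replicate 2 alone thus outnumbered overlapping ones over the genome too. Sites of replicate 2 alone had a median value of 0.672 (0.273 to 2.6), against 1.61 for the replicate 2 value of shared sites. At 1 of these 82 sites replicate 1 had any interval with a false discovery rate under 0.05. Introns held 43 of the 82, including 12 sites of Gli2, 8 of Gli3 and 8 of Boc, and 38 of the 82 were in the stricter list. The strongest site of replicate 2 alone was downstream of Sufu near Trim8 (2.6), followed by a site upstream of Cdon at chr9:35402621-35403000 (1.76). Sites of replicate 2 alone outnumbered shared ones at Cdon (10 and 4), Boc (9 and 4), Hhip (3 and 1), Gli2 (13 and 9), Gli3 (10 and 8) and Sufu (18 and 13), but not at Gli1 (6 and 11), Ptch1 (7 and 12) or Smo (6 and 8). Sites of replicate 1 alone ranged from 0.439 to 1.04, the highest lying downstream of Boc near Cfap44.

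Away from coding starts, by more than 1000 bp from any of them, the hedgehog loci held 30 shared sites. Introns held 12, upstream stretches 8 and downstream stretches 10, and none lay in an exon. For 16 of the 30 the nearest coding start was that of the hedgehog gene itself. Their median value was 1.96 in replicate 2 and 1.06 in replicate 1, and over all 23689 shared distal sites it was 1.47 in replicate 2 and 0.948 in replicate 1. The median density over the 9 loci was 1.36 shared distal sites per 100 kb, against 0.97 over all coding genes. Sufu was densest at 4.17 per 100 kb (percentile 92.8 of coding genes), then Ptch1 at 2.42 (percentile 76.5), while Hhip had none. The Sufu locus holds 5 other coding genes, and most of its shared distal sites lay nearest to the start of another gene, such as Trim8. A peak of Cdon just outside the 50 kb limit, at 50609 bp from the gene body in replicate 2 (2.31) and 50809 bp in replicate 1 (1.37), was left out. A Sufu peak just inside it, at 47796 bp in replicate 2 (3.84) and 47736 bp in replicate 1 (1.73), was kept.

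By percentile rank averaged over the libraries, the strongest shared distal site lay in a Ptch1 intron at chr13:63567761-63568180, between the Ptch1-205 and Ptch1-201 starts. It had 4.53 in replicate 2 and 3.10 in replicate 1, above every coding-start value of Ptch1 in the same library. Its mean percentile among all peaks was 93.7, a different base from the percentiles among genes given for coding starts. Among all peaks the strongest Ptch1 coding-start site stood at 85.4. Footprints numbered 6 in replicate 2 and 5 in replicate 1, and 4 of the 5 overlapped one of replicate 2, on the GC-rich stretches in capitals in its printed sequence. The site downstream of Boc at chr16:44484161-44484360 followed, with 3.81 in replicate 2 and 2.92 in replicate 1. The Gli3 site at chr13:15759201-15759420 had 4.40 in replicate 2 and 2.10 in replicate 1. That of Gli2 at chr1:119087621-119087820 had 2.85 in replicate 2 and 2.37 in replicate 1. These sites of Boc and Gli2 were close between the libraries, whereas a site downstream of Sufu at chr19:46499807-46500470, nearest to Trim8, had 12.1 in replicate 2 and 1.73 in replicate 1.

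At the remaining loci the leading shared distal sites, again by mean percentile among all peaks, ranked lower. That of Cdon, downstream at chr9:35541561-35541760 and nearest to Ddx25, had 3.47 in replicate 2 and 1.80 in replicate 1. At Smo an intron site at chr6:29758581-29758760 (1.51 in replicate 2 and 1.48 in replicate 1) stood at percentile 77.3. The Smo upstream site printed with the GLI sequences (1.98 in replicate 2 and 1.21 in replicate 1) stood close to it, at percentile 76.5. Gli1 had a single shared distal site, at chr10:127350701-127350880, with 1.37 in replicate 2 and 1.08 in replicate 1. High values near Gli1 and Smo stood instead at coding starts of their neighbours. The highest was at Ddit3, a stress-response factor next to Gli1, with 13.4 in replicate 2 and 4.88 in replicate 1. Ahcyl2 next to Smo had 10 in replicate 2 and 3.06 in replicate 1.

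Footprints lay in the strongest coding-start peak of all 9 genes in both libraries, where 96.7% of such peaks over all genes held a footprint in replicate 2 and 95.0% in replicate 1. The peak of Sufu held 7 in replicate 2 and 1 in replicate 1, the largest gap, and that of Boc held 3 in replicate 2 and 6 in replicate 1. Over the 70 shared sites 214 footprints were called in replicate 2 and 168 in replicate 1. Of the 168, 98 (58.3%) overlapped a footprint of replicate 2 and 3 had identical ends, against 64.4% overlapping and 3.23% identical of all 96298 footprints of replicate 1 in shared sites. Sites with at least 1 overlapping footprint numbered 44 of 70, and 3 of 70 had no footprint in either library.

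The GLI sequence was found in 3 of the 30 shared distal sites, searched in 300 bp windows centred on each site (10%), and in 0.346% of all shared distal sites. The 3 sites were the Smo, Boc and Ptch1 stretches printed among the GLI sequences. A match was counted as lying in a footprint where the 2 overlapped by 1 bp or more. The Smo site had 1.98 in replicate 2 and 1.21 in replicate 1. Its match overlapped a footprint of replicate 1 but none of replicate 2. The Boc site was weak, at 0.545 in replicate 2 and 0.826 in replicate 1, and no footprint covered its match. The Ptch1 intron site was weaker still, with 0.506 in replicate 2 and 0.4 in replicate 1, and its match lay in the window but outside the called site.

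At coding starts the GLI sequence was in 1 of 20 shared windows of the hedgehog genes (5.0%) and in 0.265% of all shared coding-start windows. This was the Ptch1-205 start, whose match lay in a footprint of replicate 2 but not of replicate 1. A further match lay inside the strongest Ptch1 coding-start site, outside its 300 bp window, and no footprint of either library covered it. No footprint of both libraries covered any GLI match at the hedgehog genes. Footprints over GLI matches were uncommon elsewhere too, since of 65 matches inside all shared distal sites 2 lay in footprints of both libraries. With 3 sites the share at the hedgehog loci rests on few events, and it was 1 site when equal numbers of the strongest peaks were used.

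Other sequences were searched on both strands in the same 30 distal windows. The E-box CAGCTG, bound by factors such as ATOH1 of granule cell progenitors, was in 11 (36.7%), against 25.1% of all shared distal windows. The ZIC sequence CAGCAGG was in 2 (6.67%) against 19.2%, the SP sequence GGGCGG in 6 (20%) against 16.3%, and the NRF1 sequence GCGCATGCG in 1 (3.33%) against 0.494%. The NFI sequence, TTGGC and its reverse complement 5 bases apart, was in none, against 0.182%. The RFX sequence, GTTGC and its reverse complement 4 bases apart, was also in none, against 0.262%. At coding starts the SP sequence was in 12 of 20 windows (60%), against 68.2% of all. None of the 135 matches at sites of the hedgehog genes overlapped a match of another sequence.

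A CTCF-type sequence, CCA, AG and GGC with 2 free bases between them, was chosen for the search after the footprint sequences had been seen. CTCF is the architectural factor that anchors chromatin loops. The sequence was in 8 of the 30 distal windows (26.7%), close to the 26.1% of all shared distal windows. Because the sequence was chosen after footprints were seen, the number of its matches in footprints at these loci is no independent result. Of the 8 matches, 7 lay in footprints of both libraries, while of 11 matches of the E-box in the shared distal sites none did. Over all shared distal sites 86.1% of 6238 CTCF-type matches lay in footprints of both libraries, 10.4% of 5937 E-box matches and 3.08% of 65 GLI matches. The 8 matches were at 2 upstream sites of Gli2, 2 intron sites of Gli3, a Sufu intron site, the strongest distal site of Boc and 2 sites downstream of Cdon. The Gli1 coding-start site held 1 as well, under footprints of both libraries, and it can be read in the capitals of the Gli1, Gli2 and Boc sequences.

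**Figure D4:**
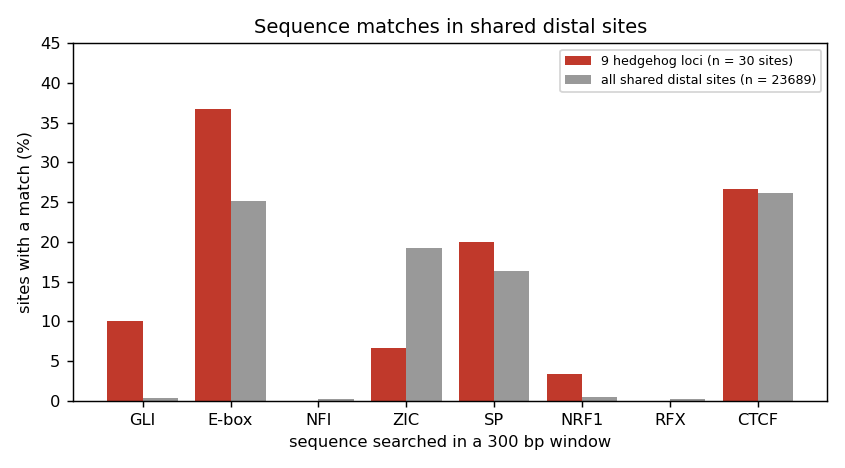
Bars give the percentage of 300 bp windows with each sequence, for the 30 shared distal sites of the hedgehog loci and for all 23689. The GLI bars are 10% and 0.346%, resting on 3 sites, and the CTCF-type bars are 26.7% and 26.1%.

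Around the 9 genes, 42 other genes of the pathway were listed by role, and 35 of them (83.3%) had a coding-start peak in both libraries, against 58.9% of all coding genes. Ligands and their release were the least open group. Of its 9 genes 4 were open in both libraries. Shh, the ligand itself, had 0.851 in replicate 2 and no peak in replicate 1, and Scube3, of a family that carries ligand, had 0.871 in replicate 2 and none in replicate 1. The ligand genes Ihh and Dhh and the carrier gene Scube2 had no coding-start peak in either library. The strongest of the group was Disp2, a relative of the ligand exporter, with 6.17 in replicate 2 and 3.03 in replicate 1.

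In the other groups most genes were open. All 6 genes of reception, 11 of 11 of the cilium and signal relay and 8 of 8 GLI kinases and turnover genes had a peak in both libraries. The strongest of the cilium group was the trafficking gene Tulp3 (12.6 in replicate 2 and 4.23 in replicate 1). That of the kinases and turnover group was Btrc (18.2 in replicate 2 and 7.62 in replicate 1), a ubiquitin ligase subunit that acts on GLI proteins. The kinases and turnover genes stood highest, with a median percentile of 90.0 in replicate 2 and 82.5 in replicate 1, where the 9 core genes stood at 33.3 and 26.7. Of 8 target genes of granule cell progenitors 6 were open in both. Ccnd2 (1.85) and Nkx2-2 (0.599) had a peak in replicate 2 alone, and Mycn, a proto-oncogene that drives progenitor growth, was the strongest with 5.49 in replicate 2 and 1.72 in replicate 1. Target genes had median percentiles of 25.7 in replicate 2 and 22.1 in replicate 1, near those of the core genes.

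**Figure D5:**
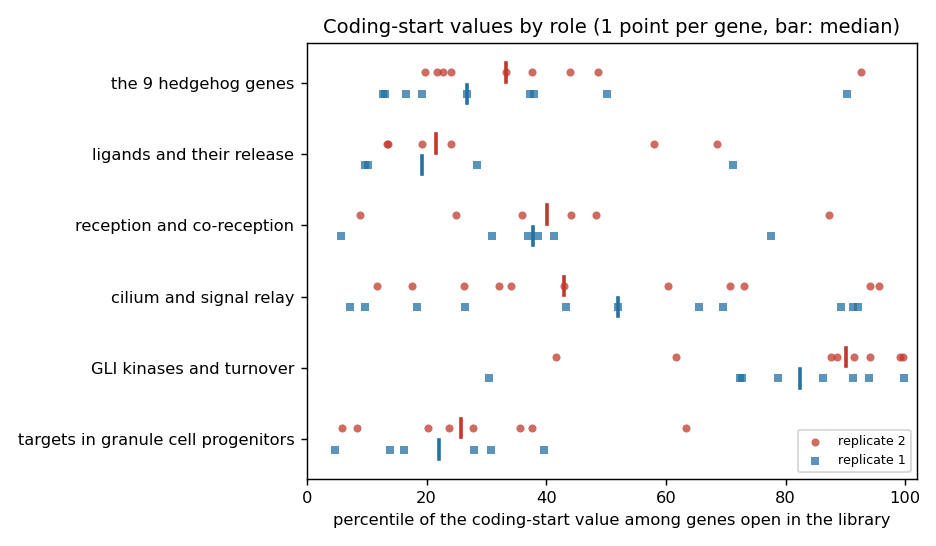
Each point is the percentile of 1 gene's coding-start value among the genes open in that library, circles for replicate 2 and squares for replicate 1, with bars at the median of the genes with a peak in that library. The core genes have medians of 33.3 and 26.7 with Sufu apart at 92.6 and 90.2, and GLI kinases and turnover genes have medians of 90.0 and 82.5.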

How the data were processed

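Peaks, false discovery rates and footprints were made by the authors from alignments of each library alone to mm10, per the description files deposited with them. For the aligner, callers and versions, the sources used here give nothing. The deposited peak signal of each library was a whole multiple of a library-specific step and was read as normalised by the authors, by an unstated factor and over an unstated part of the peak. The deposited p-value files hold false discovery rates of the cut rate under 0.05. Footprints carry another deposited value, 0.01 on every line, so the authors' positions alone were used. Labels name 2 sequencing instruments for replicate 1, and none for replicate 2.

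Genes came from GENCODE M21. A coding-start peak lay within 500 bp of a start of a protein-coding transcript, and the strongest counted. Sites were shared at an overlap of 1 bp, and a sequence match was in a footprint at the same overlap. Values are given per library with mean and SD (n = 2), and the SD includes the general difference in value between the libraries. The members and lists were chosen with earlier results of these data known. Named were the 9 genes, the strongest distal site of each locus, the 5 strongest over all 9 loci, sites with the GLI sequence, and, of other pathway genes, those without a peak and the strongest per role (that of the reception group is not reported here); other named sites were chosen after their values were seen. Analyses used Python 3.11.15, numpy 2.4.6 and pandas 2.3.3, tested on simulated data. Alternatives covered the list, window, flank, overlap, start, sequence and library.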

Additional observations from a re-analysis of the deposited data

How the results depend on the processing

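The count of 9 genes open in both libraries stayed at 9 with the stricter list, equal numbers of peaks, a 2000 bp window and the most upstream start alone. The number of shared distal sites was 30 and depended most on the settings: 14 with the stricter list, 14 within 10 kb of the genes, 57 within 100 kb. With 1 library left out, distal sites ranged from 37 to 99 (99 without replicate 1), GLI-holding sites from 2 to 4, other open pathway genes from 35 to 39, the median coding-start value from 1.26 to 2.32, and open genes and genes with footprints from 9 to 9. GLI-holding sites numbered 1, against 3, when equally many of the strongest peaks were taken. The median log2 difference of 0.67 became -0.35 when centred on the median of all genes, so relative to other genes the hedgehog starts differed less. Gli1's mean value was 3.01 in the 2000 bp window, which takes in its intron site, and Ptch1's was 0.929 at its most upstream start. Without replicate 2, values stood at 4.33 for Sufu, 1.63 for Ptch1 and 1.26 for Cdon, against means of 7.77, 2.75 and 1.99, and with the most upstream start alone the median of the gene means was 1.28 against 1.99. No paired analysis was possible because both libraries belong to 1 group. Unknown read depth limits what the absence of a peak shows.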

Other observations

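Atoh1, the defining factor of granule cell progenitors, had a coding-start value of 0.492 in replicate 2 and 0.587 in replicate 1, lower in replicate 2 where 92.6% of open genes were higher. The other cerebellar markers went both ways. Zic1 (0.705 in replicate 2 and 1.72 in replicate 1), Zic2 (1.32 in replicate 2 and 1.48 in replicate 1) and En2 (1.06 in replicate 2 and 1.46 in replicate 1) were also lower in replicate 2. Neurod1 (1.82 in replicate 2 and 1.48 in replicate 1), Calb1 (1.11 in replicate 2 and 0.871 in replicate 1) and Car8 (0.898 in replicate 2 and 0.755 in replicate 1) were higher in replicate 2. Pax6 was open in replicate 2 alone (3.66), Zic4 in replicate 1 alone (1.2) and Ptf1a in neither.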
